A study of Homo sapiens with 2 samples.

Results

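The miR-26 family was taken as every locus of the deposited count table named miR-26a or miR-26b, whatever the arm or copy suffix. The rule found 3 loci of 947 (450 of which carry a miRNA name), and they hold 2 distinct names of 388. miR-26a-5p is listed at its copies on chromosomes 12 and 3, and miR-26b-5p at 1 locus on chromosome 2. The series compared untreated MCF10A cells (n = 3 libraries) with MCF10A cells exposed to 2 µM withaferin A over 24 h (n = 3 libraries). MCF10A is an established, non-tumorigenic human breast epithelial line that both groups share. Withaferin A is a plant steroidal lactone, isolated from Withania somnifera. Each group is 1 sample record whose labels name 3 replicates. Nothing in them says that these were separate cultures, so p-values measure only the spread between libraries, which may be technical. The labels name a QIAseq miRNA kit and a NEBNext small RNA kit. In the order given there, the first served for untreated cells and the second for treated cells, so the effects of kit and compound cannot be told apart.

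MicroRNAs (miRNAs) are short RNAs that guide Argonaute proteins to matching messenger RNAs, mainly through a seed near the 5′ end. The miR-26 hairpins lie in introns of the CTDSP genes, which encode small phosphatases of the RNA polymerase II tail, and the miRNAs are thought to be made from the host transcripts. Among their best known targets is EZH2, the methyltransferase of Polycomb repressive complex 2. The transcription factor MYC is known to repress the family, and its members are usually described as restraining growth.

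The mature sequences are printed because the seed is what the members share and the other bases are what tells their reads apart. They are RefSeq entries on GRCh38.p14, written 5′ to 3′, with the seed (bases 2 to 8) in capitals.
hsa-miR-26a-5p: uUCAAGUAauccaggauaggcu
hsa-miR-26b-5p: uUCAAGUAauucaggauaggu
hsa-miR-1297: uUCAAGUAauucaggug
hsa-miR-4465: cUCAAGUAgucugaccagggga
Of 2370 mature names in the RefSeq table, these 4 carry the seed UCAAGUA. Values are given here for miR-26a and miR-26b alone, since no locus of the count table is named miR-1297 or miR-4465. Laid end to end from the 5′ base without gaps, miR-26a-5p (22 bases) and miR-26b-5p (21 bases) were identical at 19 of 21 positions. The differences were C11U and C21U, counted from the 5′ end with the miR-26a base first.

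The hairpins show why the copies of miR-26a cannot be counted apart by the mature 5p sequence. The 5p arm is in capitals, and it is the same in MIR26A1 and MIR26A2.
MIR26A1: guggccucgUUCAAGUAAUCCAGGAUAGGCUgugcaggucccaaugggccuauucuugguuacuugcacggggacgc
MIR26A2: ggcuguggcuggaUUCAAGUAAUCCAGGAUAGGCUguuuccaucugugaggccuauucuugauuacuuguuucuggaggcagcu
MIR26B: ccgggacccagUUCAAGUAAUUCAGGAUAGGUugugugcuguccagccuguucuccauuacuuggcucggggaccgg
MIR26A1 lies on the plus strand at chr3:37969404-37969480, in intron 5 of CTDSPL. MIR26A2 lies on the minus strand at chr12:57824609-57824692, in intron 5 of CTDSP2. MIR26B lies on the plus strand at chr2:218402646-218402722, in intron 4 of CTDSP1. Each hairpin runs on the strand of its host, and it was intronic in every protein-coding transcript that spans it in GENCODE release 29 (3, 5 and 4 transcripts for the hosts in that order). Intron numbers are those of the principal transcript. All 3 loci of the table carry 5p names. Arms in locus names are as deposited here and below, and which arm the reads came from was not checked. The 3p arms of the miR-26a hairpins match each other at 17 of 22 positions, but 3p arms were not analysed here.

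The libraries differed greatly in depth, and this sets what can be said of miR-26. Untreated libraries held 1855838 to 2615684 counts and withaferin A libraries 340 to 430, 1188 in all. At that depth a miRNA with 0 counts over the withaferin A group could still hold 0.253% of counts (3 counts, or 2525 CPM, a count scaled to a common library total). This level is called the floor, and lower bounds on a fold are set against it. Of the 947 loci, 52 had an untreated mean above that floor, among them all 3 miR-26 loci. The epithelial markers miR-205, miR-200c, miR-141 and miR-203a together took 6.91% to 7.77% of untreated and 28.8% to 37.2% of withaferin A counts. All 395 of those withaferin A counts were miR-205, and the other 3 had 0 (miR-200c-5p was at least 2.44-fold lower). Lists of mesenchymal, blood cell and liver or muscle miRNAs reached at most 0.0111% in any untreated library and had 0 counts after withaferin A. As in any bulk sample, fewer cells and less RNA per cell cannot be told apart.

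miR-26a-5p was among the leading miRNAs of untreated MCF10A cells and miR-26b-5p was a lesser one. At the chromosome 12 copy miR-26a-5p held 61315, 66170 and 42940 reads in untreated replicates 1, 2 and 3, which was 2.38%, 2.53% and 2.31% of counts. Its mean of 2.41% ± 0.110 (SD, n = 3) placed it at rank 8 of 388 names with 1 locus per name, and it was at rank 8, 10 and 8 in the single libraries. In this order miR-148a-3p (3.36%) and miR-148a-5p (3.29%) hold separate ranks above miR-26a-5p. The next name above it, miR-148a-5p, ran from 2.82% to 3.72% and did not overlap with it, whereas let-7i-5p just below ran from 1.48% to 3.08% and did.

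miR-26b-5p had 13842, 14206 and 6715 counts in the untreated libraries, or 0.538%, 0.543% and 0.362%. Its mean of 0.481% ± 0.103 (SD, n = 3) gave rank 30 of 388. Both neighbours in that order, miR-17-5p (0.435% to 0.589%) and miR-181a-5p (0.300% to 0.538%), overlapped with its range. Names with equal values keep separate ranks above miR-26b-5p. They are miR-92a-1-5p and miR-92a-2-5p (0.999% each), and miR-103a-1-5p and miR-103a-2-5p (0.847% each). Counts at the miR-26 loci, named for mature RNAs of 21 and 22 bases, were compared as shares of reads, with no correction for length.

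The family members stood in somewhat different ratios in the 3 untreated libraries. miR-26b-5p made up 18.4%, 17.7% and 13.5% of miR-26 counts (1 copy of miR-26a plus miR-26b) in untreated replicates 1, 2 and 3, with exact 95% limits of 18.1% to 18.7%, 17.4% to 17.9% and 13.2% to 13.8%. The ratio of miR-26a-5p to miR-26b-5p was 4.43, 4.66 and 6.39. Untreated replicate 3 was the lowest, but the limits cover counting error only, and over all loci untreated libraries differed by far more than that (chi-square of 43.8 to 135.9 per degree of freedom between pairs). On the log2 scale its share in replicate 3 was 0.58 below the mean of replicates 1 and 2 (log2 difference −0.58), the 9th lowest such difference of 79 names with at least 1000 counts in every untreated library. For miR-26a-5p the difference was −0.09, and its range over the 3 libraries (log2 0.13) was the 7th smallest of the 79, whose median range was 0.44. The range of miR-26b-5p (log2 0.59) was at place 52 of the 79, not far from that median. The authors' normalized score was 6243, 6568 and 4156 for miR-26b-5p and 27656, 30592 and 26574 for miR-26a-5p. It is each count times 1 factor per library, so it keeps the ratio of the 2 members and is no second check. These comparisons between untreated replicates were chosen after their values were seen.

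The 2 loci of miR-26a-5p held nearly the same reads. The chromosome 12 copy exceeded the chromosome 3 copy by 149, 123 and 74 counts in the untreated libraries, 0.243%, 0.186% and 0.172% of its counts. In the withaferin A libraries the copies were equal. Among 9 names listed at more than 1 locus with at least 1000 counts at each copy in each untreated library, the mean difference between copies ran from 0% (miR-22-5p and miR-514a-5p) to 11.0% (miR-181b-5p), and miR-26a-5p, at 0.200%, was the 5th smallest. The copies are therefore 1 measurement, given below at chromosome 12, and how much of it came from CTDSPL or from CTDSP2 was not resolved.

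After withaferin A few miR-26 reads were counted. miR-26a-5p had 1, 4 and 0 counts in replicates 1, 2 and 3, which was 0.239%, 0.930% and 0% of counts. At the untreated share 10.1, 10.4 and 8.19 counts would have been expected. Every withaferin A library was below every untreated library, although the 4 counts of replicate 2 carry exact 95% limits of 0.254% to 2.36% and reach the lower edge of the untreated range. miR-26b-5p had 0 counts in all 3 libraries, where 2.01, 2.07 and 1.64 were expected. A single withaferin A library therefore could not have shown a loss of miR-26b-5p, since 0 counts of 340 to 430 allow 0.698% to 0.882%, above its untreated share.

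**Figure D1:**
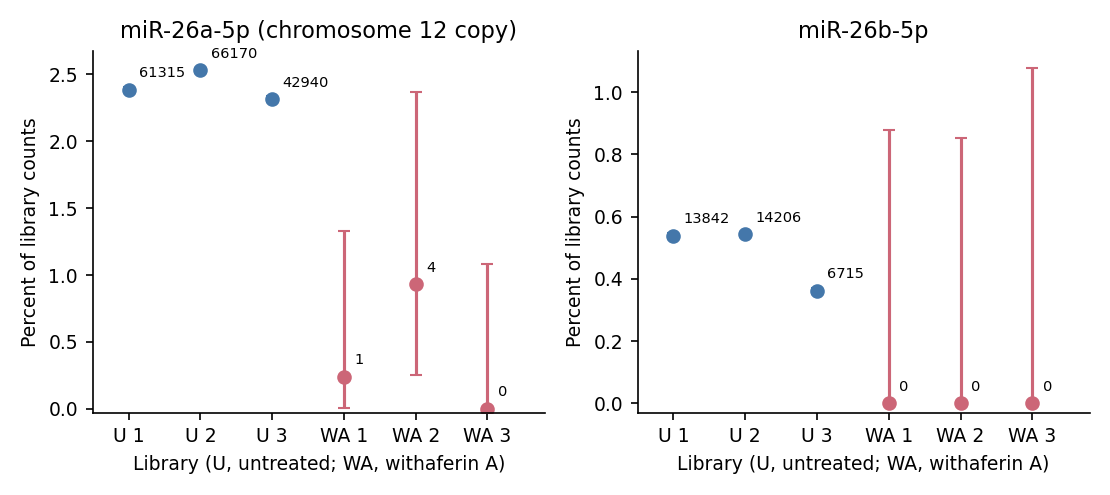
Share of each library's counts (percent, vertical axis) for miR-26a-5p at its chromosome 12 copy and for miR-26b-5p in the 3 untreated (U) and 3 withaferin A (WA) libraries. Bars are exact 95% binomial limits, too narrow to see for untreated libraries, and the number beside each point is its count. miR-26a-5p lies between 2.31% and 2.53% in untreated libraries and at or below 0.930% after withaferin A, while the limits around the 0 counts of miR-26b-5p reach above its untreated values.

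As a share of all counts, miR-26a-5p fell. Summed over the withaferin A libraries the 5 counts were 0.421% of 1188 (exact 95% limits 0.137% to 0.979%). The untreated share would have given 28.6. That is 5.72-fold lower than in untreated cells (limits 2.46 to 17.6). These totals hold every listed copy of a miRNA, so reads shared by copies are counted at each. Among named loci with further copies of a name left out, 905 withaferin A counts remained. Of these counts miR-26a-5p was 4.84-fold lower (limits 2.08 to 14.9). Over all loci edgeR's quasi-likelihood test put the change at −3.69 ± 0.75 on the log2 scale (SE; adjusted p = 0.0155). It was lower in 3 of 3 libraries, and the chromosome 3 copy gave −3.69 ± 0.75 (adjusted p = 0.0155). With library totals in place of trimmed-mean (TMM) scaling it was −2.53 (adjusted p = 0.0428). The TMM factors were 0.767, 1.21 and 3.32 in withaferin A replicates 1, 2 and 3 and 0.668 to 0.707 in untreated libraries. The SE takes these factors as fixed. Withaferin A replicate 2 held 4 of the 5 counts, and without it the share was 18.3-fold lower (limits 3.29 to 721) and the edgeR log2 fold change −6.22 (adjusted p = 7.31e-05).

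miR-26b-5p was also called lower (edgeR adjusted p = 0.0181). Its 0 counts, against 5.72 expected, put its share at least 1.91-fold lower against the floor of 3 counts, or 1.55-fold by the exact 95% limit of 0.310%, and the fitted fold change of a miRNA with 0 counts is no measure of size. The call was lost with library totals (edgeR adjusted p = 0.0825), when 3.63% of the 303 loci were called lower. Without 1 of the withaferin A libraries the bound was 1.22-fold to 1.36-fold against the floor. By the exact limit it was 1.01, 0.991 and 1.11 without replicates 1, 2 and 3, and only without replicate 2 did that include no change. Summed over the family, the share went from 2.89% ± 0.201 to 0.390% ± 0.483 (SD, n = 3), which is −2.50 percentage points. A two-sided exact permutation test gave p = 0.1, its minimum for 3 against 3 libraries, so 0.05 was out of reach.

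All 3 miR-26 loci, which are 2 measurements, were called lower, where 16.8% of the 303 loci tested were. The background is much higher among abundant loci, since 80.8% of the 52 loci above the floor were called lower. Groups did not overlap, with withaferin A below, at 91.1% of tested loci and at 75% of the 52. By these shares the calls of the miR-26 loci are like those of most abundant loci. Among 45 names above the floor with 1 locus each, 20 had 0 counts after withaferin A, miR-26b-5p among them. Of the 25 with a count, 8 had a larger fold lower than miR-26a-5p, and 16 had a smaller one or were higher. Their median was 2.44-fold lower. Names with equal counts, such as miR-24-1-5p and miR-24-2-5p, were counted as separate names in these numbers.

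**Figure D2:**
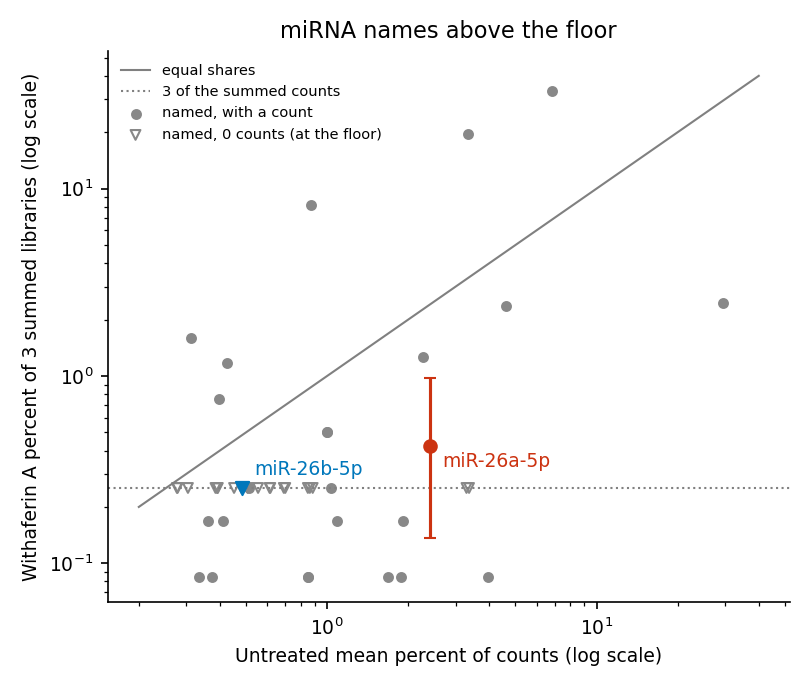
Percent of counts in the 3 summed withaferin A libraries (vertical, log scale) against the untreated mean (horizontal, log scale) for the 45 miRNA names above the floor, 1 locus each. Filled circles have a count after withaferin A, triangles have 0 counts and are drawn at the floor of 0.253%, and the diagonal marks equal shares. miR-26a-5p, with its exact 95% bar, lies below the diagonal at 0.421% and miR-26b-5p is a triangle among 20.

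The size of the fall depended on what the share was taken of. miR-205, let-7a and let-7c, at 4 loci, took 12.9% to 15.5% of untreated counts and 71.5% to 84.4% of withaferin A counts and all other loci the remainder. Of 6 names above the floor with a higher share after withaferin A, these were the 3 with the most counts (97 or more), picked with their gains known, and let-7e-5p, miR-125a-5p and miR-125b-5p were kept in. let-7a-5p entered the share of the 4 loci at both its copies, with 232 and 223 withaferin A counts. In untreated libraries these copies differed by a mean of 0.0194%, so their reads were taken as shared and counted at each copy. Without miR-205, let-7a and let-7c 241 withaferin A counts remained. Of the remaining counts miR-26a-5p held 2.80%, 2.99% and 2.66% in untreated replicates 1, 2 and 3. It held 1.54%, 5.06% and 0% in withaferin A replicates 1, 2 and 3. On this scale the groups overlapped, and withaferin A replicate 2 was above all 3 untreated libraries.

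Of those remaining counts miR-26a-5p was 1.36-fold lower over the summed libraries, with exact 95% limits of 0.590 to 4.16 that include no change as well as a fall of 4-fold. The 0 counts of miR-26b-5p stood against 1.36 expected, too few to show a fall. The family together was 1.63-fold lower (limits 0.708 to 4.99, exact two-sided permutation p = 0.5). In edgeR with library totals and without those 4 loci, a setting added after the data were seen, the log2 fold change of miR-26a-5p was −0.41 (adjusted p = 0.941) and miR-26b-5p was not called either (adjusted p = 0.941). Left-out libraries moved this value on both sides of equality. Without withaferin A replicate 2 miR-26a-5p was 4.56-fold lower (limits 0.830 to 180), without replicate 1 it was 1.24-fold lower (0.493 to 4.52), and without replicate 3 the ratio was 0.811 (0.356 to 2.48), that is, higher after withaferin A.

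**Figure D3:**
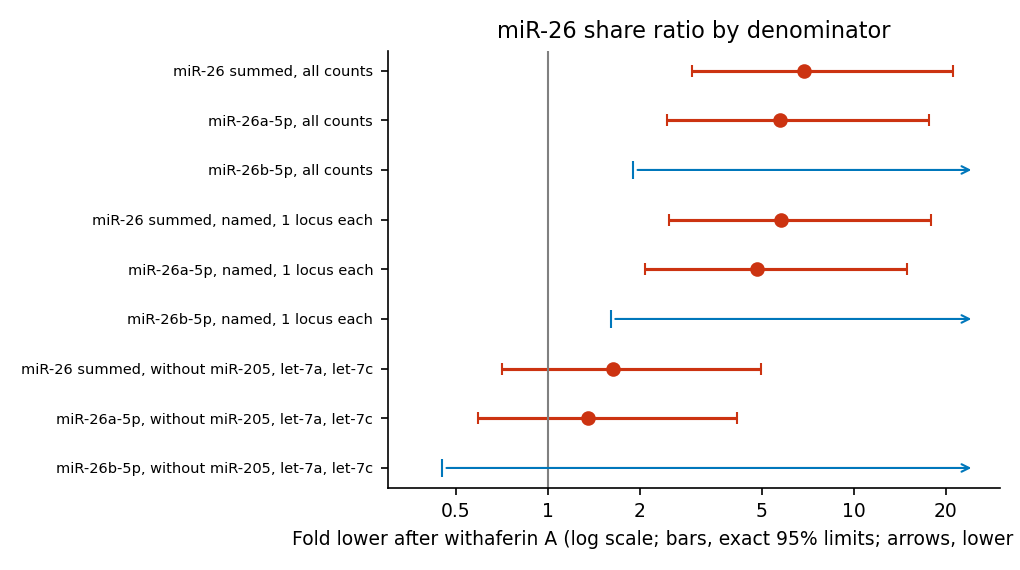
Fold by which the share of miR-26 was lower after withaferin A (horizontal, log scale) for the family, miR-26a-5p and miR-26b-5p, taken of all counts, of named loci with 1 locus per name, and of counts left without miR-205, let-7a and let-7c. Circles are ratios with exact 95% limits, and arrows start at the lower bound that 3 counts allow for miR-26b-5p. The limits for miR-26a-5p lie above 1 for all counts (2.46 to 17.6) and span 1 for the remaining counts (0.590 to 4.16).

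**Figure D4:**
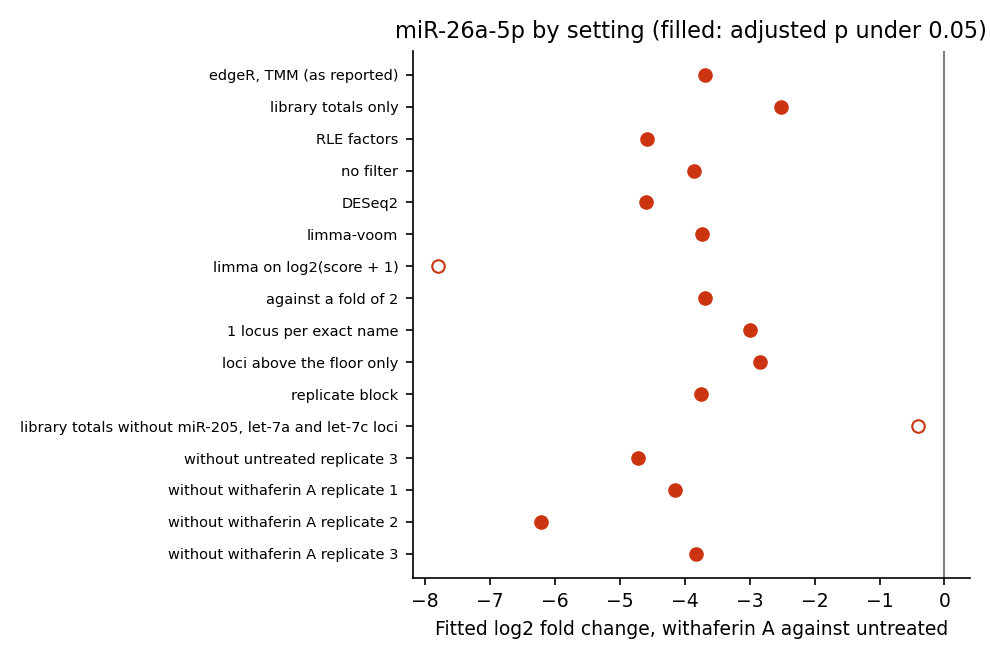
Fitted log2 fold change of miR-26a-5p, withaferin A against untreated (horizontal), under each setting of the test (vertical). Filled points had an adjusted p under 0.05, and the vertical line marks no change. All values are below 0, from −7.80 in limma on the log2 score to −0.41 without miR-205, let-7a and let-7c, and those 2 are the open points.

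Whether the balance inside the family differed after withaferin A could not be seen at this depth. Of the 5 miR-26 counts 0 were miR-26b-5p, which allows up to 52.2% (upper exact 95% limit), and 0.827 would be expected at the untreated mean of 16.5% ± 2.64 (SD, n = 3).

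The names nearest to each member were found by Euclidean distance of log2 CPM (prior count 2) over the 6 libraries. For miR-26a-5p they were miR-182-5p (distance 4.90, counts of 1, 1 and 0 after withaferin A), miR-27b-5p (10.7, 1 count), miR-100-5p (10.7, 1 count) and miR-191-5p (11.2, 3 counts, all in replicate 2). miR-182-5p (edgeR adjusted p = 0.0727) and miR-191-5p (adjusted p = 0.142) were not called, and miR-27b-5p (−5.73 ± 0.76, adjusted p = 0.00289) and miR-100-5p (−6.80 ± 0.77, adjusted p = 0.00188) fell. For miR-26b-5p they were miR-24-2-5p and miR-24-1-5p (0.519 each, with equal counts in every library and so taken as shared reads), miR-7-5p (0.561) and miR-200c-5p (0.616). All 4 had 0 counts after withaferin A, as did miR-26b-5p, and their bounds ran from at least 1.55-fold to at least 2.44-fold lower. Distances rest largely on which withaferin A libraries held a count.

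Other miRNAs that MYC is known to repress were called lower or did not pass with TMM scaling, and 1 of them, let-7a-5p, was called higher with library totals. Of 16 hairpin names listed besides miR-26, 14 were in the table, and 13 miRNA names were tested. Of these, 0 were called higher (0.66% of all loci tested were), 5 lower (16.8% of all were) and 8 did not pass. miR-29b-1-5p and miR-29b-2-5p, which are among the 8, had equal values and are 1 measurement. Of the list's 5 members above the floor 4 were called lower, where 80.8% of all loci above it were. At an unadjusted p under 0.05 edgeR had 7 (24.8% of all loci tested), 6 lower and let-7a-5p higher. DESeq2 called 6 lower (21.1% of all) and edgeR with a replicate block 2 lower (7.92% of all). With library totals the 1 call was let-7a-5p, higher (1.98% of all loci were called higher). The 5 were let-7g-5p (2 counts, −4.77, edgeR adjusted p = 0.0133), miR-29a-5p, miR-30c-5p and miR-30e-5p (0 counts each), and miR-22-5p, which had 0 counts and an untreated mean under the floor, too low to show a fall. let-7a-5p had 232 counts against 39.7 expected and miR-16-5p had 18 against 2.88, and neither was called (adjusted p = 0.0988 and 0.26). Over the 5 members above the floor the median log2 share ratio was −0.61 with 0 counts set at their bound. It was −1.01 over all 52 loci above it. The bound applied to 3 of the 5 and to 24 of the 52.

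Other miRNAs of protein-coding introns, the kind of locus miR-26 comes from, were called lower or did not pass. Of 25 hairpin names listed, 20 were in the table as 21 miRNA names, all tested, with 0 called higher, 9 lower and 12 that did not pass. The share of all tested loci called lower was 16.8%. All 8 above the floor were called lower, 2 of which share reads, where 80.8% of all loci above it were, so this is close to the background. Among them were miR-27b-5p, miR-378a-5p of PPARGC1B (0 counts, at least 3.50-fold lower), miR-103a-1-5p and miR-103a-2-5p, which share reads (1 count, −4.61, edgeR adjusted p = 0.00474), and miR-25-5p of MCM7 (1 count, −3.40, adjusted p = 0.0311). Over these 8 the median log2 share ratio was −2.07 with 0 counts set at their bound, beside −1.01 over all 52 loci. The bound applied to 2 of the 8 and to 24 of the 52. It understates a fall, so the 2 medians do not show that these miRNAs fell further. With library totals edgeR called 2 of the 21 lower (3.63% of all loci) and with a replicate block 4 (7.92%). The 9 called names had between 0 and 2 counts each after withaferin A.

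miRNAs known to target EZH2 besides miR-26 were too scarce to read. Of 5 hairpin names, 3 were in the table as 4 miRNA names, miR-101-5p and miR-101-2-5p (equal counts), miR-138-5p and miR-98-5p. None was above the floor in untreated cells and all 4 had 0 counts after withaferin A. edgeR called 0 of the 4, with 3 at an unadjusted p under 0.05 (24.8% of all loci tested), and DESeq2 called 3 (21.1% of all loci lower). Both miR-101 names are among the 3 and are 1 measurement.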

How the data were processed

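Small RNA sequencing of untreated and withaferin A-treated MCF10A cells was read from 2 tables. The first holds counts per locus as deposited, whole numbers in 6 columns. The second holds the authors' normalized score, each count times 1 factor per library, rounded. The build was GRCh38.p7, and cutadapt, Trim Galore and edgeR are the tools listed, per the submitters' processing notes. Versions, aligner, counting rule and any use of molecular identifiers are not given in the sources used here. Columns were assigned to groups by the sample names in each record's labels.

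All loci passing filterByExpr (minimum count 10) entered edgeR's quasi-likelihood test (version 4.0.16 under R 4.3.3) with TMM scaling, and a locus was called at a Benjamini-Hochberg adjusted p under 0.05. The script was first tested on simulated data, with a pass condition only for deep libraries and none at the depth of the withaferin A libraries. The SE is the absolute log2 fold change divided by the square root of F. DESeq2 1.42.0, limma 3.58.1 and other scalings were alternatives. Shares of summed counts carry exact Clopper-Pearson 95% limits around the withaferin A share, with the untreated mean taken as fixed. Limits and floors cover counting error only. Pairs of withaferin A libraries differed by a chi-square of 1.27 to 1.57 per degree of freedom and untreated pairs by 43.8 to 135.9. This value grows with depth, so the 2 ranges do not show which group agreed better. No pair was identical, and all 6 columns were kept as replicates.

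Named miRNAs were the members, any locus sharing their seed, and the 4 names nearest to each. Sequences and hairpin positions are from RefSeq (GRCh38.p14) and hosts from GENCODE release 29 on GRCh38. Members and lists were chosen with earlier results of these data known.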

Additional observations from a re-analysis of the deposited data

How the results depend on the processing

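The count of called loci was 53 in edgeR with TMM. It was 17 with library totals, 10 with library totals and without miR-205, let-7a and let-7c, 234 in limma-voom, 631 in limma on log2(score + 1) and 25 with a replicate block. The balance of directions differed. edgeR with TMM called 2 higher and 51 lower, edgeR with library totals 6 and 11, and without those loci 7 and 3. limma-voom called 180 higher and 54 lower, limma on the score 2 and 629, and the replicate block 1 and 24. The count of called loci ran from 6 to 59 when 1 library was left out, the low end being fits without an untreated library, in which only 10 to 12 loci passed the filter.

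The log2 fold change of miR-26a-5p was below 0 in all 15 alternatives and passed in 13. It did not pass in limma on the score (−7.80, adjusted p = 0.0638) or without miR-205, let-7a and let-7c (−0.41). miR-26b-5p passed in 12 of 14, not with library totals or without those loci (fitted −15.46 in each, a value set by the prior count). With a replicate block both passed (miR-26a-5p −3.75, adjusted p = 0.00867, and miR-26b-5p adjusted p = 0.0379). The scaling shifted the 28 loci above the floor that had a withaferin A count. Their median log2 fold change was −2.44 with TMM, −1.19 with library totals and −3.24 with RLE factors. miR-26a-5p (−3.69, −2.53 and −4.59), which is among the 28 at both copies, lay below it each time. The 24 loci above the floor with 0 counts were left out, so this does not place miR-26a-5p among all 52. Without untreated replicate 1 or 2 miR-26a-5p had no value, and without any untreated library miR-26b-5p had none.

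The family's difference in share stayed below 0 (−2.77 to −1.18 percentage points). With all 3 loci summed as deposited miR-26b-5p was 9.04% of miR-26 counts. Called MYC-repressed names numbered 1 with library totals (let-7a-5p, higher) and 2 with a replicate block. They numbered 0 without any 1 of the untreated libraries, when only 10 to 12 loci of the whole table were tested. They numbered 5 without any 1 of the withaferin A libraries. Called names of protein-coding introns numbered 2 with library totals, 4 with a replicate block and 9 to 10 without a withaferin A library. EZH2-targeting names numbered 3 in DESeq2 and 0 to 2 without a withaferin A library.

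Replicate numbers are in the labels with no shared batch. Deviations of same-numbered libraries correlated at r = 0.048, −0.117 and −0.137 over loci above the floor. Those of libraries with different numbers correlated at −0.154 to 0.174. At the depth of the withaferin A libraries this check could not show or exclude pairing. The block is therefore not read as a paired design. The 340 to 430 counts of the withaferin A libraries limit every value above.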
